A study of Mus musculus with 2 samples.

Results

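The miRNAs described here are mmu-miR-677-3p, mmu-miR-706, mmu-miR-712-5p and mmu-miR-714, 4 of the 1881 mouse miRNAs on the array. They were selected on measured values, as miRNAs with low registry numbers and a doubtful hairpin origin that stood among the largest increases at week-3, so their week-3 to week-0 differences below are a description and support nothing by themselves. RNA came from BM LSKs (lineage-negative, Sca-1-positive, c-Kit-positive bone marrow cells, in which hematopoietic stem cells and their first descendants lie) of C57BL/6 mice. Both groups carried the Scl/tTA-BA transgenes, a tet-off model in which the Scl-driven transactivator switches on BCR/ABL, the fusion kinase of chronic myelogenous leukemia, once doxycycline is taken away. The week-3 group (3W_LSK) was sorted 3 weeks after doxycycline withdrawal, and the week-0 group (0W_LSK) at week 0, from mice kept on doxycycline at 20 mg/L in the drinking water. Each group was a pool of LSKs from 3 mice, hybridised to 1 array. No transgene-free pool taken off doxycycline was analysed here, so BCR/ABL, doxycycline withdrawal, time and the mice in each pool cannot be told apart.

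A single array per group gives no replicates, and the groups were not tested against each other. Standard errors (SE) below were taken over the spots of an array, and they leave out differences between mice. In a sorted bulk sample, fewer cells of a type and less of an RNA per cell cannot be told apart either. Of the 1881 miRNAs, 193 (10.3%) were detected at week-3 and 178 (9.46%) at week-0 by the scanner's flag, set where the total of a probe exceeded its error by more than 3 times. There were 158 miRNAs detected on both arrays and 213 on at least 1. Of 12 marker miRNAs of cell types, 8 were detected on at least 1 array, among them blood-cell miR-142a-3p with summed signals of 715 at week-3 and 1229 at week-0 and progenitor miR-126a-3p with 94.3 at week-3 and 248 at week-0. The granulocyte miRNA miR-223-3p had 1121 at week-3 and 820 at week-0. Erythroid miR-451a was undetected at week-3 (8.95) and detected at week-0 (48.9). Those of liver, muscle, neurons and islets (miR-122-5p, miR-1a-3p, miR-124-3p, miR-375-3p) were undetected, with sums below 0 on both arrays. The part of these shifts in cell type markers in the differences below was not tested.

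A canonical miRNA is cut from a hairpin transcript by Drosha in the nucleus and by Dicer in the cytoplasm, and then guides Argonaute to mRNAs through its seed, the bases near its 5′ end. Some small RNAs in the miRNA registry arise in other ways, as pieces of other RNAs or as short introns. The mouse miR-712 sequence lies in an internal transcribed spacer of the ribosomal RNA precursor, and the miR-677 hairpin lies within Atp5b, the gene of the beta subunit of mitochondrial ATP synthase. The roles of miR-706 and miR-714 in LSKs are not described here.

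RefSeq mature sequences were found for 2 of the 4 miRNAs and are shown because the array probes pair with their 3′ ends. Capitals mark the seed, bases 2 to 8.
mmu-miR-677-3p: gAAGCCAGaugccguuccugagaagg
mmu-miR-706: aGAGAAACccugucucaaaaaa
The seeds of these miRNAs differ. The mmu-miR-677-3p sequence has 26 bases and lies at chr10:128085335-128085360 on the plus strand of GRCm38.p6, inside Atp5b. The mmu-miR-706 sequence has 22 bases and lies at chr6:120034290-120034311 on the minus strand, inside Wnk1, the gene of a kinase that regulates ion transport. Positions of mmu-miR-712-5p and mmu-miR-714 were not used here.

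The array held 14 probes for the 4 miRNAs, and each set was a ladder in which the next probe added 1 base. The probe sequences are shown because the signal changed with the last bases. Each line below gives one probe, and the capital marks the base that the shorter probe lacks.
mmu-miR-677-3p, 14 bases: ccttctcaggaacg
mmu-miR-677-3p, 15 bases: ccttctcaggaacgG
mmu-miR-706, 16 bases: ttttttgagacagggt
mmu-miR-706, 17 bases: ttttttgagacagggtT
mmu-miR-706, 18 bases: ttttttgagacagggttT
mmu-miR-706, 19 bases: ttttttgagacagggtttC
mmu-miR-712-5p, 10 bases: ggtaccgccc
mmu-miR-712-5p, 11 bases: ggtaccgcccG
mmu-miR-712-5p, 12 bases: ggtaccgcccgG
mmu-miR-712-5p, 13 bases: ggtaccgcccggG
mmu-miR-714, 11 bases: gcgaccgaccg
mmu-miR-714, 12 bases: gcgaccgaccgG
mmu-miR-714, 13 bases: gcgaccgaccggC
mmu-miR-714, 14 bases: gcgaccgaccggcC
The longest mmu-miR-677-3p probe was the complement of the last 15 bases of the mature sequence and left 11 bases at the 5′ end, the seed included, unread. The longest mmu-miR-706 probe paired with the last 19 bases and left 3. Of the 14 probe targets, 0 occurred in another of the 1679 mature miRNA names in the RefSeq table, and 0 probes of other miRNAs on the array held or lay within one of them. These counts do not cover matches to other kinds of RNA in the total RNA that was labelled. The GC content of the longest probe was 60.0% for mmu-miR-677-3p, 36.8% for mmu-miR-706, 84.6% for mmu-miR-712-5p and 85.7% for mmu-miR-714, against a median of 52.9% over all miRNAs. Longest probes as GC-rich as that of mmu-miR-712-5p or richer made up 1.06% of the array, and for mmu-miR-714 the share was 0.904%. These were also short probes, since the median length of the longest probe was 16 bases.

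The processed signal is the scanner's spot intensity after a background was subtracted, in scanner units, so it can fall below 0. The longest probe of mmu-miR-677-3p gave spot signals of 38.6 (lowest), 49.8 (median) and 62.4 (highest) at week-3, and of 19.0, 25.0 and 33.7 at week-0, over 15 spots each. Its mean was 51.6 ± 7.16 at week-3 and 24.7 ± 3.77 at week-0 (SD over spots), a ratio of 2.09 (SE 0.111). Every week-3 spot lay above every week-0 spot. The probe 1 base shorter gave no positive mean on either array, −1.22 ± 2.05 at week-3 and −4.41 ± 3.21 at week-0, so the whole signal of this miRNA came from 1 probe.

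For mmu-miR-706 the 19-base probe gave 45.3, 47.7 and 58.3 at week-3 and 13.2, 19.8 and 25.8 at week-0 (lowest, median and highest of 7 spots each). The means were 50.5 ± 5.71 at week-3 and 20.0 ± 4.36 at week-0 (SD), a ratio of 2.52 (SE 0.234), with no overlap of spots. The signal shrank quickly with each base removed. The 18-base probe averaged 11.6 ± 3.66 at week-3 and 6.14 ± 2.04 at week-0, with overlapping spots, and at week-0 none of its spots was well above background by the scanner's flag. The 17-base probe averaged 3.80 at week-3 and 1.65 at week-0, and the 16-base probe 1.35 at week-3 and 0.591 at week-0. None of the 4 probes had a negative mean, which set mmu-miR-706 apart from the other three.

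The 13-base probe of mmu-miR-712-5p gave 51.4, 60.8 and 65.1 at week-3 and 11.9, 21.0 and 26.2 at week-0 (lowest, median and highest of 7 spots each). The means were 60.2 ± 4.45 at week-3 and 19.4 ± 5.22 at week-0 (SD), a ratio of 3.11 (SE 0.328). The 12-base probe averaged 29.7 ± 4.0 at week-3 and 11.5 ± 4.62 at week-0, where 0 of its 7 spots were well above background. In both probes the week-3 spots lay wholly above the week-0 spots. The 11-base probe crossed 0, with a mean of 5.34 ± 1.34 over 6 spots at week-3 and of −4.96 ± 1.1 over 5 spots at week-0. The 10-base probe had means of −0.0913 ± 1.23 at week-3 and −4.71 ± 4.72 at week-0 over 8 spots each.

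The 14-base probe of mmu-miR-714 gave 54.5, 58.3 and 68.1 at week-3 and 12.7, 18.4 and 22.5 at week-0 (lowest, median and highest of 7 spots each). The means were 60.4 ± 5.20 at week-3 and 17.8 ± 3.08 at week-0 (SD), a ratio of 3.39 (SE 0.247), again with no overlap. The 13-base probe averaged 33.0 ± 3.25 at week-3 and 9.34 ± 1.83 at week-0, where 0 of its 7 spots were well above background. The 12-base probe averaged 3.03 ± 1.74 at week-3 and −0.744 ± 2.79 at week-0, and the 11-base probe −3.36 ± 2.67 at week-3 and −4.64 ± 1.52 at week-0. Among the spots of the longest probes at week-0, with means of 17.8 to 24.7, the scanner flagged as well above background 11 of 15 for mmu-miR-677-3p, 3 of 7 for mmu-miR-706, 2 of 7 for mmu-miR-712-5p and 1 of 7 for mmu-miR-714. At week-3 it flagged all spots of these 4 probes.

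**Figure D1:**
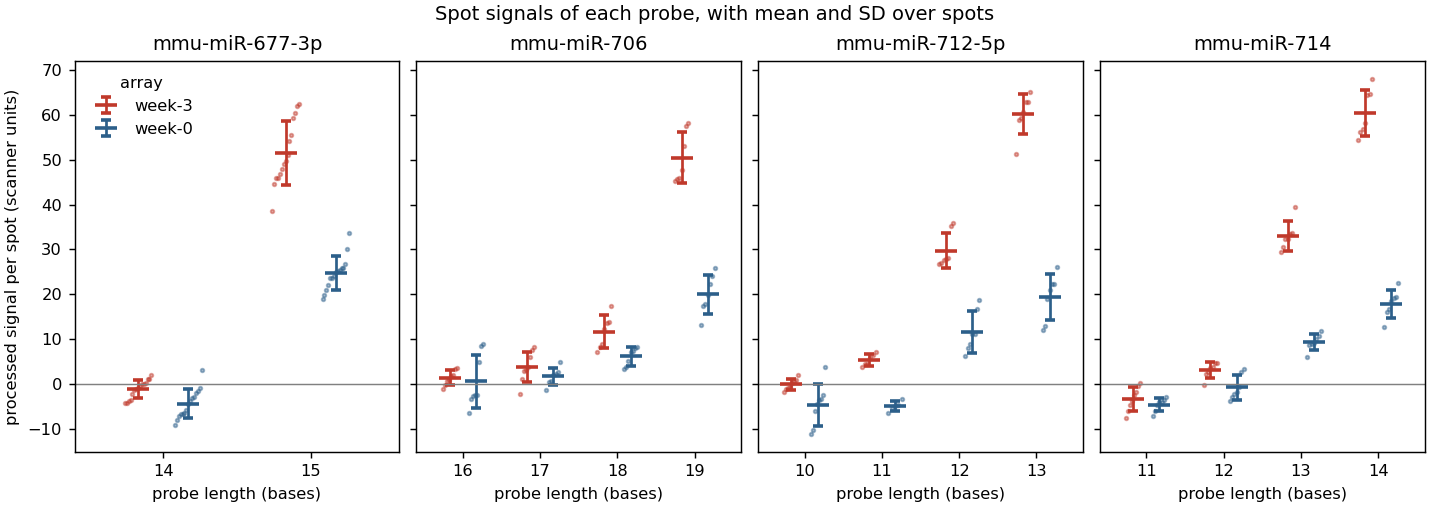
Processed signal of each spot (y axis, scanner units) by probe length (x axis, bases) for the 4 miRNAs, week-3 in red and week-0 in blue, with bars for the mean and SD over spots. The longest probes separate the arrays without overlap (week-3 means of 50.5 to 60.4), while the shortest have means from −4.71 to 1.35.

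Of the 14 probes, 7 had every week-3 spot above every week-0 spot. Among all 459 probes of miRNAs detected on at least 1 array, 13.7% had every week-3 spot above every week-0 spot. Since the miRNAs were selected on this same contrast, nothing is read from the count. Signal went up with each added base in 10 of 10 steps at week-3 and in 9 of 10 at week-0, the exception being the step from 10 to 11 bases of mmu-miR-712-5p (−0.257). In the other 154 miRNAs detected on both arrays, 156 of 172 steps went up at week-3 (90.7%) and 149 of 172 at week-0 (86.6%). The longest over the next shorter probe was 4.34 at week-3 and 3.27 at week-0 for mmu-miR-706, 2.02 at week-3 and 1.68 at week-0 for mmu-miR-712-5p, and 1.83 at week-3 and 1.91 at week-0 for mmu-miR-714. The other miRNAs had medians of 1.92 at week-3 and 1.93 at week-0 (quartiles 1.24 to 3.22 and 1.27 to 3.08), so of these 3 ladders that of mmu-miR-706 was the steepest at its last base. For mmu-miR-677-3p no ratio was taken because the shorter probe was below 0, and the last base added 52.8 at week-3 and 29.1 at week-0. These are ratios of signals between probes of 1 target and not amounts of RNA.

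Negative probe means were few among detected miRNAs and common elsewhere. The 4 miRNAs had 3 negative probe means at week-3 and 5 at week-0, and 25 of 117 kept spots were below 0 at week-3 and 44 of 114 at week-0. Over the whole array, 58.9% of the 4415 probes had a negative mean at week-3 and 58.6% at week-0. Of the 340 probes of miRNAs detected on both arrays, only 6 were negative at week-3 and 11 at week-0, of which the miRNAs described here held 3 and 5. Only 6 of the 158 miRNAs detected on both arrays had a negative probe at week-3 (3.80%) and 8 at week-0 (5.06%). Of the 158, 10 had 4 probes, with mmu-miR-706, mmu-miR-712-5p and mmu-miR-714 among them. The 4 miRNAs also lay low among the 158 at week-0 (percentiles 1.90 to 8.86). The part of probe number and level in the negative means was not tested. Background levels changed with probe length. Among the probes of the 1668 miRNAs undetected on both arrays, the median was −3.52 at week-3 and −4.24 at week-0 for 10 bases, −2.50 at week-3 and −2.66 at week-0 for 14 bases, and 0.980 at week-3 and 0.709 at week-0 for 19 bases.

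Set against undetected probes of their own length, the probes with the lowest means lay in the middle or lower part at week-0. The 10-base probe of mmu-miR-712-5p stood above 44.1% of them, its 11-base probe above 32.1%, the 11-base probe of mmu-miR-714 above 42.9% and the 14-base probe of mmu-miR-677-3p above 17.9%. At week-3 the same probes stood above 85.3%, 96.4%, 60.7% and 69.4% of the undetected probes of their length. The 12-base probe of mmu-miR-714 stood above 91.9% at week-3 and 81.2% at week-0, and the 16-base probe of mmu-miR-706 above 84.8% at week-3 and 77.6% at week-0. The longest probe of each of the 4 miRNAs stood above 100% of the undetected probes of its length on both arrays. These miRNAs were detected and the probes compared were not, so a high place was largely set by that choice. Of all 4415 probes, the longest probes stood above 96.9% to 97.3% at week-3 and 94.0% to 94.8% at week-0. The scanner subtracted a slightly smaller background at week-3, 40.1 to 41.1 for the longest probes against 42.6 to 43.5 at week-0, whereas the local background around these spots was 16.4 to 17.0 at week-3 and 15.7 to 15.9 at week-0. Before any subtraction the longest probes read 92.2 at week-3 and 67.3 at week-0 for mmu-miR-677-3p, 90.9 at week-3 and 63.5 at week-0 for mmu-miR-706, 101.3 at week-3 and 62.1 at week-0 for mmu-miR-712-5p, and 100.6 at week-3 and 60.9 at week-0 for mmu-miR-714. These are ratios of 1.37, 1.43, 1.63 and 1.65, so the background subtracted made up most of each raw week-0 reading.

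To give 1 level per miRNA, the probe means were summed. The unscaled sum of mmu-miR-712-5p was 95.2 (SE 2.37) at week-3 and 21.2 (SE 3.16) at week-0. That of mmu-miR-714 was 93.1 (SE 2.59) at week-3 and 21.8 (SE 1.81) at week-0. The sum for mmu-miR-706 was 67.3 (SE 2.89) at week-3 and 28.4 (SE 2.87) at week-0, and for mmu-miR-677-3p it was 50.3 (SE 1.92) at week-3 and 20.3 (SE 1.28) at week-0. All 4 were detected on both arrays. They ranked 75th to 116th of 1881 at week-3 and 158th to 193rd at week-0. Among the miRNAs detected on both arrays, mmu-miR-712-5p and mmu-miR-714 were mid-range at week-3 (percentiles 52.5 and 51.3), mmu-miR-706 and mmu-miR-677-3p lay lower (38.0 and 28.5), and all 4 were near the bottom at week-0 (1.90 to 8.86).

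Negative probe means lowered the week-0 sums more than the week-3 sums. For mmu-miR-712-5p the positive probes added up to 95.3 at week-3 and 30.9 at week-0, and the negative ones to −0.0913 at week-3 and −9.67 at week-0. Its ratio was 4.48 with the negative probes and 3.08 from the probes positive on each array. The 11-base probe counted there at week-3 only. For mmu-miR-714 the positive part was 96.5 at week-3 and 27.2 at week-0 and the negative part −3.36 at week-3 and −5.39 at week-0. Ratios were 4.27 with the negative part and 3.55 without, where the 12-base probe counted at week-3 only. For mmu-miR-677-3p the negative part was −1.22 at week-3 and −4.41 at week-0, and the ratio was 2.48 with it and 2.09 without. The mmu-miR-706 ratio, 2.37, held no negative part. With the median of undetected probes of the same length taken off each probe instead, the ratios were 2.18 for mmu-miR-677-3p, 2.31 for mmu-miR-706, 2.99 for mmu-miR-712-5p and 2.99 for mmu-miR-714.

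**Figure D2:**
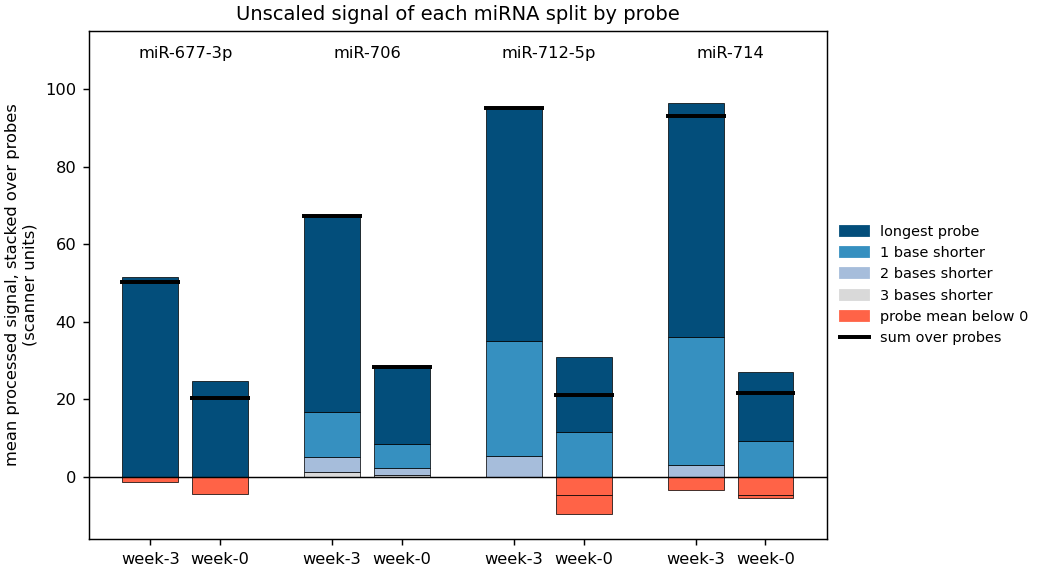
Mean processed signal of each probe stacked by miRNA and array (y axis, scanner units), week-3 left of week-0, with negative probe means in red below 0 and the sum as a black line. The red part reaches −9.67 for mmu-miR-712-5p at week-0 and is absent for mmu-miR-706.

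The sums were then brought to 1 distribution by quantile normalization, the method named by the study, and put on a log2 scale. The SE given with each log2 difference here and below was taken from the unscaled sums and leaves out the scaling step. On that scale mmu-miR-712-5p had 6.72 at week-3 and 4.31 at week-0, a log2 difference of 2.42 (SE 0.22), or 5.34-fold. For mmu-miR-714 the levels were 6.68 at week-3 and 4.36 at week-0, a difference of 2.32 (SE 0.13), or 4.99-fold. The other two had smaller differences. For mmu-miR-677-3p the levels were 5.65 at week-3 and 4.25 at week-0 with a difference of 1.39 (SE 0.11), or 2.63-fold, and for mmu-miR-706 they were 6.06 at week-3 and 4.76 at week-0 with a difference of 1.31 (SE 0.16), or 2.47-fold. Chosen for large increases, they took places 1, 3, 9 and 10 among the 158 differences of miRNAs detected on both arrays (mmu-miR-712-5p, mmu-miR-714, mmu-miR-677-3p and mmu-miR-706). In the order of these differences the first pair was 0.10 apart (SE 0.25) and the last pair 0.09 apart (SE 0.19), both within the spread over spots, whereas mmu-miR-714 exceeded mmu-miR-677-3p by 0.93 (SE 0.17).

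**Figure D3:**
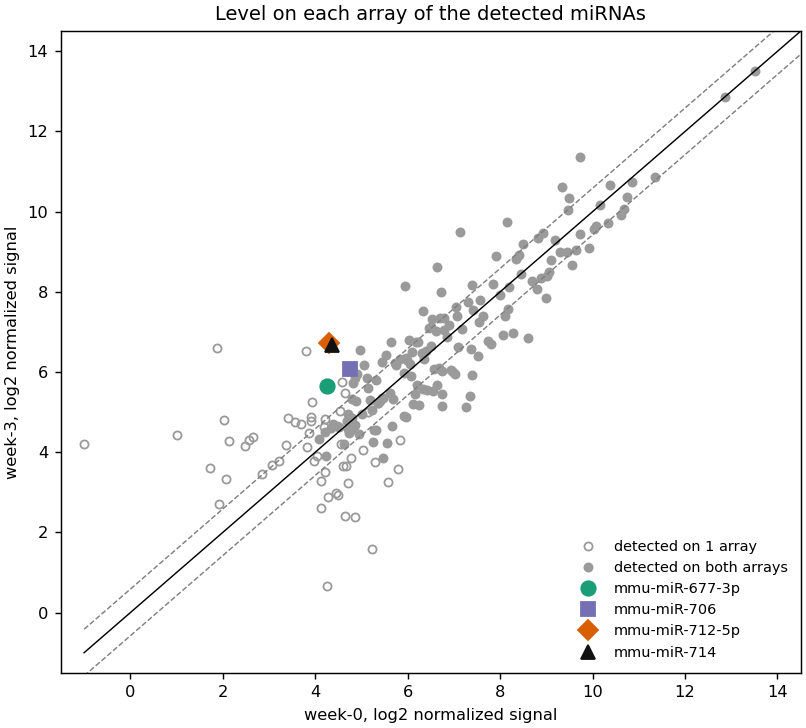
Log2 normalized signal at week-3 (y axis) against week-0 (x axis) for the 213 miRNAs detected on at least 1 array, with the line of equality and dashed lines at 1.5-fold and its inverse. The 4 miRNAs lie above the upper dashed line, with week-0 values of 4.25 to 4.76. These are near the lowest among the 158 miRNAs detected on both arrays. Some miRNAs undetected at week-0 lie lower, such as miR-7005-5p at 3.80.

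All 4 passed the study's threshold of 1.5-fold higher at week-3, as did 25.8% of the 213 miRNAs. The median log2 difference was 1.86 over the 4 miRNAs and 0.00 over the 213, and 22 of the 213 had a difference at least as large as that of mmu-miR-706. The count moved with the summary and the background. Without normalization 4 of 4 passed, beside 20.2% of all, and with the brightest probe alone 4 of 4, beside 28.6%. By the scanner's own total per miRNA 4 of 4 passed, beside 33.3%. In the authors' normalized values 3 of 4 passed, beside 24.4%, mmu-miR-706 being the exception, and by an RMA-like summary 0 of 4, beside 4.23%. With the mean signal minus local background 2 of 4 passed, beside 8.45%, and with no background taken off 2 of 4, beside 7.51%, mmu-miR-712-5p and mmu-miR-714 in both. Because the miRNAs were chosen for this contrast, no meaning is attached to these counts.

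In the authors' table mmu-miR-677-3p had log2 values of 4.14 at week-3 and 3.36 at week-0, a difference of 0.79. The differences were 0.39 for mmu-miR-706 (3.08 at week-3 and 2.69 at week-0), 1.05 for mmu-miR-712-5p (3.80 at week-3 and 2.74 at week-0) and 1.04 for mmu-miR-714 (3.84 at week-3 and 2.80 at week-0). These are 1.73-, 1.31-, 2.08- and 2.06-fold, all smaller than the values from the summed probe means. The scanner's total for a miRNA exceeded the sum of its probe totals by factors that differed between arrays, 3.99 at week-3 and 11.3 at week-0 for mmu-miR-712-5p, 5.12 at week-3 and 11.5 at week-0 for mmu-miR-714, and 6.19 at week-3 and 10.4 at week-0 for mmu-miR-677-3p. For mmu-miR-706 the factors were 2.79 at week-3 and 2.85 at week-0. As a result the unscaled ratio by the scanner's total was 1.70, 1.97 and 1.47 for these first 3 miRNAs but 2.32 for mmu-miR-706, close to its 2.37 from the summed means.

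The ratios also moved with the background step. When the same background was taken off both arrays, the unscaled ratios were 2.16 for mmu-miR-677-3p, 1.92 for mmu-miR-706, 3.55 for mmu-miR-712-5p and 3.42 for mmu-miR-714. With the mean signal less the local background, the log2 differences after scaling were 0.56, 0.39, 0.80 and 0.74 in the same order, and with an RMA-like summary, which adds a constant to every spot before the log, they were 0.23, 0.13, 0.27 and 0.24. Under 22 other ways of processing the spots each miRNA was higher at week-3 in 22 of 22. All of them used the same 2 arrays on which the miRNAs were chosen, and floors of 1 and 5 left the values unchanged. Nothing is read from this count. The highest log2 differences were 1.57 for mmu-miR-677-3p, 1.51 for mmu-miR-706, 2.43 for mmu-miR-712-5p and 2.37 for mmu-miR-714. The order also changed, mmu-miR-714 coming first with the brightest probe alone and mmu-miR-706 with the scanner's total.

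**Figure D4:**
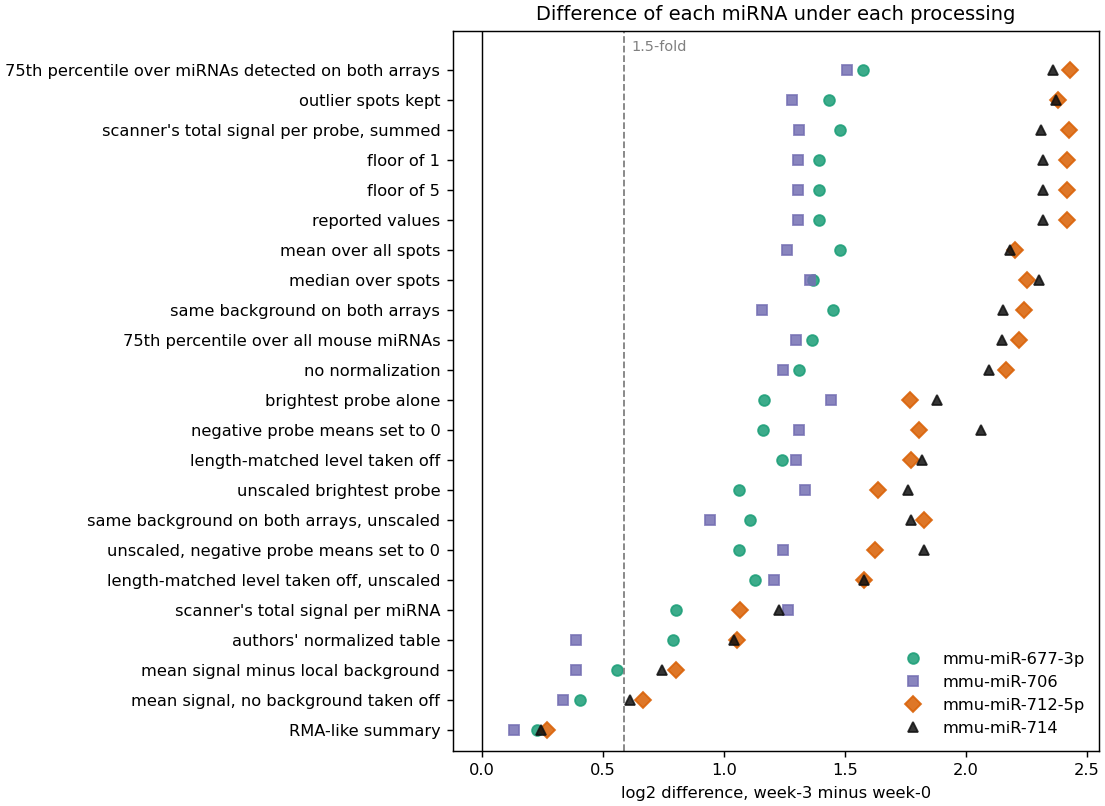
Log2 difference, week-3 minus week-0 (x axis), of the 4 miRNAs under each way of processing (y axis), with 0 and the 1.5-fold threshold as vertical lines. All points lie right of 0, from 0.13 to 2.43, and the RMA-like summary has all 4 left of the threshold.

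The array held opposite arms for the miR-677 and miR-712 hairpins only, and these carried little signal. Summed signals of miR-677-5p were 11.8 at week-3 and 5.67 at week-0, and those of miR-712-3p 2.34 at week-3 and −12.6 at week-0, and neither was detected on any array. Neighbours in the registry were mostly undetected, as was the array as a whole, where 213 of 1881 miRNAs were detected on at least 1 array. Of the 213, 55 were higher and 61 lower. The 4 miRNAs were chosen for their week-3 values, so a contrast between them and their neighbours follows from that choice. Of 57 other miRNAs numbered 670 to 720, 3 were detected, each on both arrays, with 0 higher and 0 lower by the 1.5-fold and 0.67-fold thresholds and a median log2 difference of −0.31. These were miR-671-5p with sums of 90.6 at week-3 and 151.7 at week-0 (log2 difference −0.46, SE 0.05), miR-690 with 268 at week-3 and 258 at week-0 (0.37, SE 0.03), and miR-709 with 390 at week-3 and 615 at week-0 (−0.31, SE 0.02).

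A second list held 11 miRNAs made without Drosha or Dicer or from short introns. Of these, 4 were detected on at least 1 array, with 1 higher, 2 lower and a median log2 difference of −0.83. The higher one was miR-1224-5p, a mirtron product (made from a spliced short intron), with sums of 1538 at week-3 and 762 at week-0 and a log2 difference of 1.28 (SE 0.02). The lower ones, miR-320-3p (7.15 at week-3 and 23.7 at week-0) and miR-451a, which is made without Dicer, were both undetected at week-3. The fourth, miR-877-3p, had 39.1 at week-3 and 43.3 at week-0, where it was not detected. Over all 213 detected miRNAs, 55 were higher and 61 lower. Non-canonical miRNAs on this list thus had values on both sides of 0.

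By distance in the plane of both log2 levels, mmu-miR-712-5p and mmu-miR-714 were closest to each other (0.0703). The nearest other miRNAs to each were miR-7005-5p (distances 0.547 and 0.582), with sums of 88.2 at week-3 and 14.8 at week-0 and undetected at week-0, and miR-5099 (0.682 and 0.620), with 89.8 at week-3 and 32.1 at week-0. Nearest to mmu-miR-706 were miR-6360 (0.179), with 61.3 at week-3 and 30.8 at week-0, and miR-7036a-5p (0.248), with 57.1 at week-3 and 30.6 at week-0. Nearest to mmu-miR-677-3p were miR-6997-5p (0.345), with 53.1 at week-3 and 24.8 at week-0, and miR-6965-5p (0.419), with 42.9 at week-3 and 25.7 at week-0, neither detected at week-0. With 2 arrays this likeness covers 2 values only, and all 6 neighbours have higher registry numbers.

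Among the 99 miRNAs with a number below 1000 (let-7 included) and a detection flag on each array, 11 were higher and 40 lower, with a median log2 difference of −0.42. The 4 miRNAs are among the 11. Over the 213 miRNAs detected on at least 1 array, 55 were higher and 61 lower. The 4 took places 1, 2, 4 and 5 among the 99, with miR-494-3p (1.63) at the third and miR-18a-5p (1.18), of the miR-17-92 cluster, next after them. They were chosen as low-numbered miRNAs with large increases, so nothing is read from these places.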

How the data were processed

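The authors labelled total RNA with Cy3, hybridised it to Agilent mouse miRNA arrays and read them with the scanner software Feature Extraction (version 10.7.1.1). Scanner files as deposited hold intensity values per spot: mean signal, local background and a background-subtracted processed signal, not normalized between arrays. The authors also deposited a table of log2 values, quantile normalized with AgiMicroRna per the study's methods; its summary of spots is not given in the sources used here. On the detected miRNAs its slope on the log2 mean over spots was 1.03 at week-3 and 1.04 at week-0.

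Here, outlier spots (1600 at week-3 and 1941 at week-0) were left out. Processed signals were averaged per probe, summed per miRNA, quantile normalized over 1881 miRNAs, floored at 0.5 and put on the log2 scale (Python 3.11.15, pandas 2.3.3, numpy 2.4.6). The RMA-like summary used limma 3.58.1 in R 4.3.3 with normexp and an offset of 50. Scripts were tested on simulated data. Saturated miRNA spots numbered 0 on each array, and 0 columns belonged to other samples. The header names mm9, but 1555 of 1560 miRNA starts in the authors' table equal GRCm38.p6, including those of mmu-miR-677-3p and mmu-miR-706, so that build was used.

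Thresholds of 1.5-fold and 0.67-fold followed the study. Groups were taken from the titles. Named miRNAs were the 4 chosen ones, those of their opposite arms that the array held, and list members detected on both arrays. The 2 nearest to each of the 4 in the plane of both log2 levels were also named. Others named for a count or as markers were chosen after their values were seen. The miRNAs and lists were chosen with earlier results of these data known. Other settings, 16 listed at the outset and 6 added after the data were seen, varied background, summary, scaling and floor. The number of arrays limits the precision.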

Additional observations from a re-analysis of the deposited data

How the results depend on the processing

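No paired analysis was possible because each group had 1 array and the labels gave no replicate numbers, and for the same reason no array could be left out. The reported log2 differences were 1.39 for mmu-miR-677-3p, 1.31 for mmu-miR-706, 2.42 for mmu-miR-712-5p and 2.32 for mmu-miR-714, and below they follow in this order. None of 22 alternatives turned a direction, but all used the same arrays on which the miRNAs were chosen for that direction. The brightest probe alone gave 1.17, 1.44, 1.77 and 1.88, and negative probe means set to 0 gave 1.16, 1.31, 1.81 and 2.06. The mean signal minus local background gave 0.56, 0.39, 0.80 and 0.74, and no background subtraction gave 0.41, 0.33, 0.67 and 0.61, each leaving 2 of 4 past 1.5-fold, beside 8.45% and 7.51% of the 213 miRNAs. The scanner's total gave 0.80, 1.26, 1.07 and 1.23, the authors' normalized values 0.79, 0.39, 1.05 and 1.04, and the RMA-like summary 0.23, 0.13, 0.27 and 0.24, with 0 of 4 past 1.5-fold, beside 4.23%. Of the settings added after seeing the data, the unscaled brightest probe gave 1.06, 1.33, 1.64 and 1.76, unscaled sums with negative means at 0 gave 1.06, 1.24, 1.62 and 1.83, and the same background on both arrays, unscaled, gave 1.11, 0.94, 1.83 and 1.77. With the level of undetected probes of the same length taken off, the values were 1.24, 1.30, 1.77 and 1.82 after scaling and 1.13, 1.21, 1.58 and 1.58 without it. Percentile scaling, no normalization, other floors, outliers kept, summed probe totals, the same background on both arrays after scaling and means or medians over spots moved no value outside its 95% interval over spots. That interval was built on the SE of the unscaled sums. The cause of the moves between settings was not tested. At week-0 the longest probes stood above 94.0% to 94.8% of all probes on the array, whatever their length. By the scanner's flag, 1 to 3 of 7 of their spots (11 of 15 for mmu-miR-677-3p) were well above background.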

Other observations

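Other miRNAs with GC-rich probes were set beside mmu-miR-712-5p and mmu-miR-714, and a part of GC content in the differences was not tested. Of 43 miRNAs whose longest probe had a GC content of at least 80%, 12 were detected on at least 1 array. Over the whole array 213 of 1881 were. Of the 12, 3 were higher by 1.5-fold and 0 lower, beside 55 (25.8%) and 61 of the 213. The 3 include mmu-miR-712-5p and mmu-miR-714, which were chosen for their increase. The third was miR-7044-5p, with a summed signal of 19.4 at week-3 and of 6.55 at week-0, where it was not detected. The other 9 had normalized log2 differences of −0.12 to 0.56, beside a median of 0.00 over the 213. They were 0.42 for miR-8101, 0.47 for miR-3960, 0.49 for miR-6538, 0.51 for miR-7686-5p, 0.53 for miR-8110 and 0.56 for miR-5126. The rest were 0.12 for miR-2861, −0.12 for miR-3620-3p and 0.00 for miR-6366. One of these, miR-6366, ranked 1 on both arrays, which sets its normalized difference to 0.00, while its unscaled sums were 15935 at week-3 and 7481 at week-0, a ratio of 2.13. It was the 1 of the 9 that passed 1.5-fold without scaling. Unscaled ratios of the others were 1.33 for miR-6538, 1.30 for miR-8101, 1.26 for miR-7686-5p and 1.16 for miR-5126 (924 at week-3 and 793 at week-0). They were 1.06 for miR-8110, 1.06 for miR-3960, 0.986 for miR-2861 (87.9 at week-3 and 89.1 at week-0) and 0.843 for miR-3620-3p. Without scaling, the median log2 difference over the 213 was −0.147.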
